A study of Mus musculus with 10 samples.

Results

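The genes described here supply the retina with fuel: 37 genes for glucose uptake, glycolysis, lactate handling, control of pyruvate dehydrogenase and phosphocreatine, out of 25905 genes in the table. They were chosen by symbol, and all 37 were listed. Their values come from 10 retinas, the left and the right of 5 mice numbered 61, 64, 65, 66 and 68, all wild-type C57BL/6J animals on postnatal day 34. From postnatal day 24 a lens of −20 dioptres sat in front of 1 eye of each mouse for 10 days to induce myopia, and the contralateral eye had no lens. Which eye of a mouse had the lens is not in the labels, which give only left or right, and an effect of the lens was therefore not tested. Right eyes were compared with left eyes, the eyes of a mouse with each other, and mice among themselves. Each library is a whole retina, in which fewer cells of a type and less RNA per cell cannot be told apart.

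Retinal neurons draw glucose from the choroidal and retinal vessels through facilitative transporters. Photoreceptors break most of it down to lactate even when oxygen is present, a habit called aerobic glycolysis, and pass the lactate on to glia and pigment epithelium, which can burn it. Several steps are run by alternative isozymes: photoreceptors are rich in hexokinase 2 (Hk2), lactate dehydrogenase A (Ldha) and mitochondrial creatine kinase (Ckmt1), whereas hexokinase 1 (Hk1) and lactate dehydrogenase B (Ldhb) are found more widely.

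Each value is a CPM, the count of a gene scaled to the size of its library. The listed genes of a library held an estimated 29580000 to 37080000 counts, inferred from the step between low values. By that estimate 1 CPM rested on 89.25 to 113.3 counts. The listed genes summed to 321700 to 346700 CPM. All 14 rod, all 9 cone and all 12 Müller glia markers were above 0 in every library. Lens transcripts, 17 genes summed, lay between 16.15 and 169.4 CPM in 9 libraries and reached 1021 CPM in the right eye of mouse 65. Muscle transcripts, 16 genes summed, lay between 55.07 and 62.32 CPM in 9 libraries and reached 327.8 CPM in the left eye of mouse 68. Per the labels, a damaged file left the right retina of mouse 64 with unequal numbers of forward and reverse reads.

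Several genes of the group carry short promoter letters that known fuel-sensing factors read, and 5 promoters are shown as background on these genes. Nothing below tests a link between these letters and the values. The hypoxia-inducible factor, whose regulated subunit is Hif1a, reads a core of ACGTG. The glucose-sensing factors Mlxip and Mlxipl read paired E-box-like motifs such as CACGAG spaced by 5 bases. Below are the 250 bases upstream of a transcription start of 5 members (RefSeq, GRCm38.p6, 5′ to 3′ on the strand of the gene), with ACGTG on either strand in capitals for Pgk1, Ldha, Slc16a3 and Hk2, and CACGAG in capitals for Txnip.
Pgk1: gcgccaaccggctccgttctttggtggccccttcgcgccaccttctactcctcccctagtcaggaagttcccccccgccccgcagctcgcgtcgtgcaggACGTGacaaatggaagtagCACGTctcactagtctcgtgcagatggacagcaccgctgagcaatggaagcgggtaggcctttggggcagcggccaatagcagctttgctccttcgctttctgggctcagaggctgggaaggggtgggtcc
Ldha: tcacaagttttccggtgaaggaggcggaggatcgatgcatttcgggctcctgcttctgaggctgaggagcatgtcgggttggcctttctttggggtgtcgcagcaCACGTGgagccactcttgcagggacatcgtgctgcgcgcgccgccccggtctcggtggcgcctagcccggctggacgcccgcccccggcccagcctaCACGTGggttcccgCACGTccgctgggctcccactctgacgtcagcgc
Slc16a3: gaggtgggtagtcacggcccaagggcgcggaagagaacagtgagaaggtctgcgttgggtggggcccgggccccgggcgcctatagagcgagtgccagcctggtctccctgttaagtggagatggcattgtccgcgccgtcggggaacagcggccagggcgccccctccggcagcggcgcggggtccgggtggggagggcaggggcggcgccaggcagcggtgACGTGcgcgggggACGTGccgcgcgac
Hk2: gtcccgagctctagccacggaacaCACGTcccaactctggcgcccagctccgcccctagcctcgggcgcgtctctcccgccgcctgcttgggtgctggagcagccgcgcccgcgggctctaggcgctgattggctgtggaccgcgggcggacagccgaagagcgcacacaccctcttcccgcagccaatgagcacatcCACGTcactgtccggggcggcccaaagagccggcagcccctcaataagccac
Txnip: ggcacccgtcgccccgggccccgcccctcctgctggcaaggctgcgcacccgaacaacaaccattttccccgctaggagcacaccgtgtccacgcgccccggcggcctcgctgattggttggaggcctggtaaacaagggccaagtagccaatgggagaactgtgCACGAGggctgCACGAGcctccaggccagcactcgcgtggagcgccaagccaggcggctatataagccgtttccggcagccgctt
They lie at chrX:106186850-106187099 (plus strand), chr7:46845554-46845803 (plus), chr11:120948817-120949066 (plus), chr6:82774455-82774704 (minus) and chr3:96557707-96557956 (plus), in the order shown. The windows of Pgk1, Hk2 and Txnip end at the deposited start of the gene, and those of Ldha and Slc16a3 lie inside the deposited gene, before a start further along. The Ldha window held 5 overlapping or separate matches, 34 to 145 bases upstream of the start, and each of the Pgk1, Slc16a3 and Hk2 windows held 2. Of the 37 members, 36 had an entry in the promoter table, with 59 promoters of 250 bases before and 50 after a start. ACGTG or its reverse complement CACGT was found in 24 of these 59 (40.7%) and in 19.6% of all 32851 promoters in the table. The CACGAG pair with a spacing of 5 bases was found in 1 of the 32851, that of Txnip. Txnip is shown for this pair. These matches describe letters and say nothing of which factor was bound.

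Levels of different genes were compared as CPM per kb of exon, the length being the union of the exons of the gene in GENCODE M21 on GRCm38. All 37 members had the deposited coordinates of that annotation. Many transcripts of the group were abundant. Of the 34 members with a mean of at least 1 CPM, 22 were among the top 10% of 14032 genes ranked per kb. Among the top 5% were 20 and among the top 1% were 6, where the median of all ranked genes was 1.96 CPM per kb. Pkm (chr9:59656368-59679375), pyruvate kinase of the last energy-yielding step, stood at 123.5 CPM per kb and ranked 39, Aldoa, the aldolase of most tissues, at 97.6 CPM per kb and ranked 48, and Ckb, cytosolic brain creatine kinase, at 63.0 CPM per kb and ranked 74. The counts are per gene and do not separate the M1 and M2 splice forms of Pkm.

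**Figure D1:**
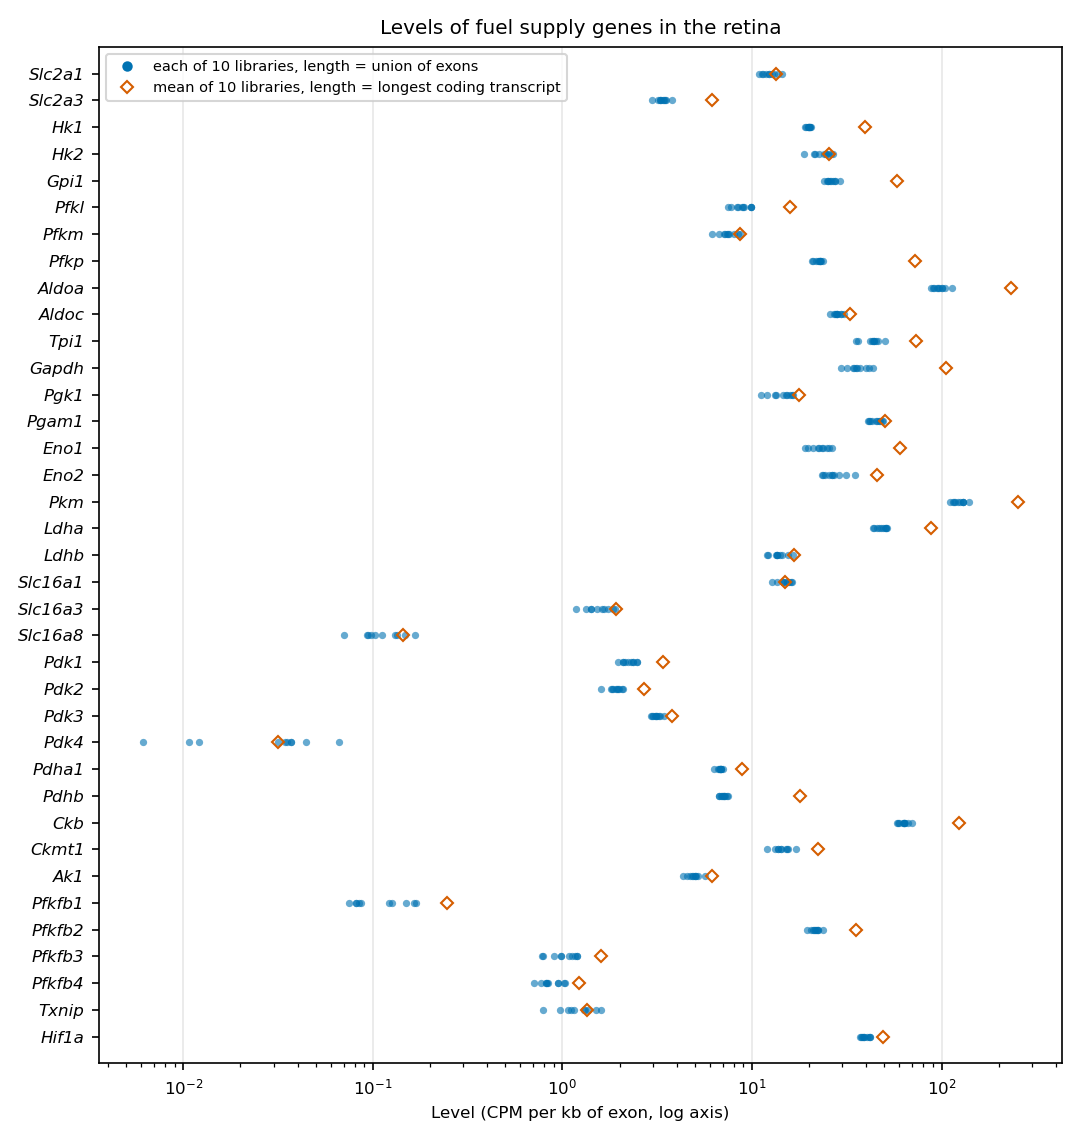
Level of each of the 37 genes, ordered by role from glucose transport at the top to regulators at the bottom, as CPM per kb on a log axis. Blue points are the 10 libraries with the union of exons as length, and the open diamond is the mean of the 10 with the longest coding transcript as length. Means of the glycolytic enzymes run from 7.47 (Pfkm) to 123.5 (Pkm), whereas Slc16a8, Pdk4 and Pfkfb1 lie at 0.115, 0.031 and 0.114.

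Glucose enters through Slc2a1 (GLUT1, chr4:119108711-119137983) at 12.4 CPM per kb, 3.69 times the level of the neuronal transporter Slc2a3 (GLUT3) at 3.36 CPM per kb. It is trapped by the hexokinases: Hk2 (chr6:82725025-82774454) stood at 23.5 and Hk1 (chr10:62268855-62379908) at 19.9 CPM per kb. The order of these neighbours depended on the length used, since with the longest coding transcript the log2 ratio of Hk2 to Hk1 was −0.64 in place of 0.24. Gpi1, glucose phosphate isomerase, stood at 26.1 CPM per kb. Of the phosphofructokinases, the platelet form Pfkp stood at 22.4 CPM per kb, 2.99 times the muscle form Pfkm at 7.47, and the liver form Pfkl at 8.84.

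Further down the pathway, Aldoc, the brain aldolase, stood at 28.2 CPM per kb, 0.289 times Aldoa. Tpi1, triose phosphate isomerase, stood at 42.9, Gapdh, glyceraldehyde phosphate dehydrogenase, at 36.2, Pgk1, phosphoglycerate kinase, at 14.3 and Pgam1, phosphoglycerate mutase, at 44.97 CPM per kb. The neuronal enolase Eno2 stood at 27.2 and the general enolase Eno1 at 22.9 CPM per kb. That order reversed with the longest coding transcript (log2 ratio −0.41 in place of 0.25). With its near-identical copies, described below, Eno1 summed to 302.3 CPM, against 127.9 CPM for Eno2, for which no copy was found. Ldha (chr7:46841475-46855627), the form that favours lactate, stood at 48.1 CPM per kb, 3.47 times Ldhb (chr6:142490249-142507957), the form that favours pyruvate, at 13.9. That ratio was above 1 in 10 of 10 libraries, between 2.91 and 4.19. Of the carriers that move lactate across the cell membrane, Slc16a1 (MCT1) stood at 14.9 CPM per kb, 9.52 times Slc16a3 (MCT4) at 1.56. With the longest coding transcript as length, ratios moved by over 1.5 times for Slc2a1 to Slc2a3 (2.17), Pfkp to Pfkm (8.34), Pfkl to Pfkm (1.83), Aldoc to Aldoa (0.141) and Ldha to Ldhb (5.25), without a change of order.

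The gate from glycolysis to the mitochondrion was less abundant. Pdha1 and Pdhb, subunits of pyruvate dehydrogenase, stood at 6.76 and 7.05 CPM per kb, a ratio of 0.96 that became 0.493 with the longest coding transcript. Of the kinases that switch this enzyme off, Pdk3 stood at 3.14, Pdk1 at 2.25 and Pdk2 at 1.90 CPM per kb, and Pdk4, the kinase raised by fasting in other tissues, at 0.031. Of the mitochondrial and cytosolic creatine kinases, Ckmt1 stood at 14.4 CPM per kb, 0.229 times Ckb. Ak1, adenylate kinase, stood at 4.92 CPM per kb. The bifunctional enzymes that set fructose 2,6-bisphosphate, an activator of phosphofructokinase, were led by Pfkfb2 at 21.6 CPM per kb. Pfkfb3 stood at 1.02, Pfkfb4 at 0.87 and Pfkfb1 at 0.114. Txnip, an inhibitor of glucose uptake, stood at 1.22 and Hif1a at 39.5 CPM per kb.

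Slc16a8, Pdk4 and Pfkfb1 had means under 1 CPM and were not tested. Slc16a8 (MCT3), a lactate carrier of the pigment epithelium, was listed at 0.160 to 0.379 CPM, lowest in the right retina of mouse 64 and highest in the right retina of mouse 65. Of the 14 markers on the pigment epithelium list, Best1 was lowest at 0 to 0.1315 CPM and Trpm3 highest at 105 to 131.5 CPM. Between them lay Lrat at 0.939 to 2.42 CPM, Tyrp1 at 1.03 to 3.95, Rgr at 4.293 to 9.436 and Enpp2 at 12.05 to 17.8 CPM. Whether the level of Slc16a8 follows the share of pigment epithelium was not tested. Pdk4 was listed at 0.0215 to 0.234 CPM and Pfkfb1 at 0.301 to 0.682 CPM. At an estimated 89.25 to 113.3 counts per CPM the lowest of the Pdk4 values rests on very few counts.

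Copies elsewhere in the genome took a large share of the values of some enzymes. A search of the members against the transcripts of GENCODE M21 found listed genes of at least 95% identity over at least 500 bases for 11 of the 37 members, and for 6 of them these copies held at least 10% of the summed CPM. Pgk1 itself had a mean of 32.2 CPM, whereas its copies Gm5537 and Pgk1-rs7 and the gene together had 105.0, so that 69.3% of the sum was listed under the copies. Eno1 had 123 CPM of 302.3, with 59.3% under Eno1b and Gm4735, and Gapdh 149.8 CPM of 212.6, with 29.5% under 53 copies, mainly Gm7336. The share was 14.2% for Pgam1, 12.3% for Gpi1, 10.9% for Ldhb and 6.24% for Pkm. How reads that match several places were counted is not given in the sources used here, so these members are uncertain. The sum would count a read more than once if it had been counted at each copy. The lowest values of the Gapdh copies Gm10359, Gm5559 and Gm12070 were 8.9e-08, 6.07e-07 and 5.915e-06 CPM. By the inferred step between low values, 0.00883 to 0.0112 CPM, these are not whole counts. In the other Gapdh copies the lowest value was 0 or at least 0.01055 CPM. Whether reads were split between copies was not tested. With the longest coding transcript as length, the sums stood at 149.7 CPM per kb for Gapdh, 149.1 for Eno1 and 57.5 for Pgk1.

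Gapdh and its main copy ran against each other. Gapdh was at 131, 146, 179, 164 and 140.5 CPM in the left retinas of mice 61, 64, 65, 66 and 68 and at 121, 171, 147, 143 and 154 CPM in the right retinas. Gm7336 was at 78.05, 75.7, 39.6, 39.5 and 64.4 CPM in left eyes and 62.2, 44.7, 62, 58.4 and 58.6 CPM in right eyes, in the same order of mice. In every mouse the eye with the higher Gapdh value had the lower Gm7336 value except in mouse 61, where both were lower on the right. The highest library was 1.48 times the lowest for Gapdh alone and 1.21 times for the sum with all copies. For Pgk1 the same factor fell from 1.48 to 1.28, and for Eno1 it was 1.39 and 1.38.

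**Figure D2:**
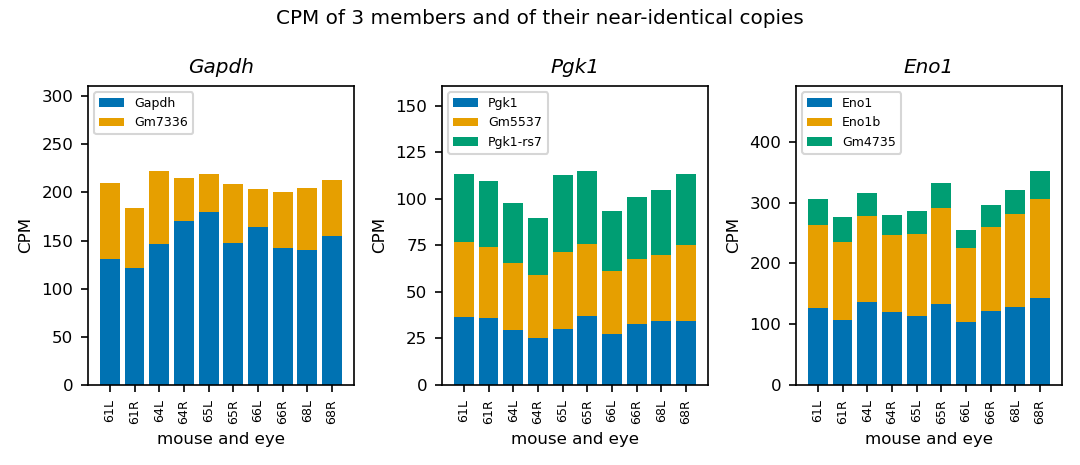
Stacked CPM of Gapdh, Pgk1 and Eno1 (blue) and of their near-identical copies with a mean of at least 1 CPM (orange, green) in each of the 10 libraries, named by mouse and eye (L left, R right). The stacked height of Gapdh and Gm7336 varies less than the blue part alone.

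No member passed the test of right against left retinas. Of the 34 tested members, 0 passed an adjusted p of 0.05 in limma with the mouse as a block (smallest adjusted p 0.9996), as did 0 of all 14210 tested genes (0%). At an unadjusted p under 0.05 the count was 0 of 34 members against 333 of all genes (2.34%). None of the 34 went the same way in 5 of 5 mice, against 4.79% of all genes, and 16 of 34 had a mean difference above 0, against 51.1%. Mean differences on the log2(CPM + 1) scale ran from −0.09 (Ckmt1) to 0.09 (Pdk1), with standard errors of at most 0.08. For Ldha the 95% interval of right minus left was −0.08 to 0.15, for Slc2a1 −0.10 to 0.23 and for Slc16a1 −0.09 to 0.17.

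The 6 members with the lowest unadjusted p are given in every library. Pdk1, a kinase that restrains pyruvate dehydrogenase, was at 16.7, 16.3, 19.3, 15.2 and 17.2 CPM in the left retinas of mice 61, 64, 65, 66 and 68 and at 18.3, 16.3, 19.3, 17.9 and 18.4 CPM in the right retinas. Right eyes were above left eyes in 3 mice and nearly level with them in mice 64 and 65 (difference 0.09, SE 0.05, unadjusted p 0.0877 in limma), and without mouse 66 the difference was 0.05. Hk2 was at 135, 147, 159, 113 and 129 CPM in left eyes and 143, 146, 150.4, 127 and 156 CPM in right eyes. Right eyes were above left eyes in mice 61, 66 and 68 and below them in 64 and 65, with a difference of 0.09 (SE 0.05) and an unadjusted p of 0.108 in limma. Without mouse 65, whose right retina is rich in lens transcripts, the difference was 0.13 (unadjusted p 0.0237 in limma, adjusted p 0.999), and without mouse 68, whose left retina is rich in muscle transcripts, it was 0.04 (unadjusted p 0.427).

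Ckmt1, which hands mitochondrial energy to phosphocreatine, was at 42.7, 38.04, 33.1, 34.2 and 37.7 CPM in left eyes and 38.7, 29.9, 34.4, 35.4 and 35.6 CPM in right eyes. The left and right values overlapped, and the right eye was lower in 3 of 5 mice, most in mouse 64, whose right eye is the library with the damaged file. Without that mouse the mean difference was −0.03 in place of −0.09. Eno2 was at 165, 147, 111, 111 and 127 CPM in left eyes and 136, 115, 120.1, 124 and 124 CPM in right eyes. The left retinas of mice 61 and 64 were the highest of the 10, and the mean difference was −0.08 (SE 0.07), which became −0.01 without mouse 64 and −0.03 without mouse 61. Pdk3 was at 7.86, 7.63, 8.30, 8.001 and 7.55 CPM in left eyes and 8.12, 7.70, 8.83, 7.95 and 8.37 CPM in right eyes, higher on the right in 4 of 5 mice by small amounts (mean 0.05, and 0.03 without mouse 68). Pgam1 was at 82.8, 89.04, 93.7, 81.2 and 92.3 CPM in left eyes and 85.3, 82.03, 97.5, 91.02 and 96.3 CPM in right eyes, higher on the right in 4 of 5 mice, the exception being mouse 64 (mean 0.04, and 0.01 without mouse 66 or 0.08 without mouse 64).

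In each of mice 61, 64, 65 and 66, most members were higher in the same eye, but that eye was the left in mice 61 and 64 and the right in mice 65 and 66. On the right, 6 of 34 members were higher in mouse 61 and 7 of 34 in mouse 64, against 38.0% and 44.1% of all tested genes. In mice 65 and 66 the members higher on the right were 27 and 28 of 34, against 62.7% and 60.4% of all genes, and in mouse 68 they were 19 of 34 against 47.1%. Median differences of the members were −0.09, −0.12, 0.08, 0.11 and 0.02 log2 units in mice 61, 64, 65, 66 and 68, and those of all tested genes −0.04, −0.02, 0.04, 0.04 and −0.01. Rescaling libraries to their listed genes gave 11, 10, 25 and 27 members higher on the right in mice 61, 64, 65 and 66, where the shares of all tested genes became 52.0%, 54.0%, 55.6% and 54.2%. The median of the members in mouse 61 then went from −0.09 to −0.04, and mouse 68 had 24 of 34 members higher on the right against 53.1% of all genes. Quantile normalisation gave 9, 8, 25 and 27 members in the 4 mice, against 50.9%, 50.3%, 47.1% and 49.7% of all genes, and adding copies gave 6, 6, 27 and 28.

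Of the 17 glycolytic enzymes from the hexokinases to lactate dehydrogenase, 15 were lower on the right in mouse 61 (all but Hk2 and Pgam1) and 15 in mouse 64 (all but Hk1 and Gapdh). In mouse 66, 15 of 17 were higher on the right, all but Hk1 and Gapdh, in mouse 65, 13 of 17, and in mouse 68, 12 of 17. Across all members, 22 of 34 were lower on the right in both mice 61 and 64 and higher in both 65 and 66, against 25.6% of all tested genes. That sign pattern was read from the members themselves, so the count is a description. The 22 include Slc2a1, Aldoa, Tpi1, Pgk1, both enolases, Pkm, Ldha, Ldhb, Slc16a1, Slc16a3, Ckb and Ckmt1. Hif1a had the opposite sign in all 4 of these mice, and Hk1, Gapdh and Pdk3 had the majority sign in 1 of the 4. With its copies added, Gapdh was lower on the right in all 4.

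Hif1a was at 226, 228, 246, 243 and 219 CPM in left eyes and 238, 247, 231, 221 and 230.1 CPM in right eyes. Right eyes were above left eyes in mice 61, 64 and 68 and below them in 65 and 66, but the differences were small, between −0.14 and 0.12 log2 units. The antisense gene Gm15283, which overlaps it, stood at 0.232 to 0.821 CPM. Slc2a1 was at 44.7, 50.8, 37.95, 39.9 and 39.7 CPM in left eyes and 41.4, 43.3, 48.2, 43.2 and 45.9 CPM in right eyes, with differences from −0.23 in mouse 64 to 0.34 in mouse 65.

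**Figure D3:**
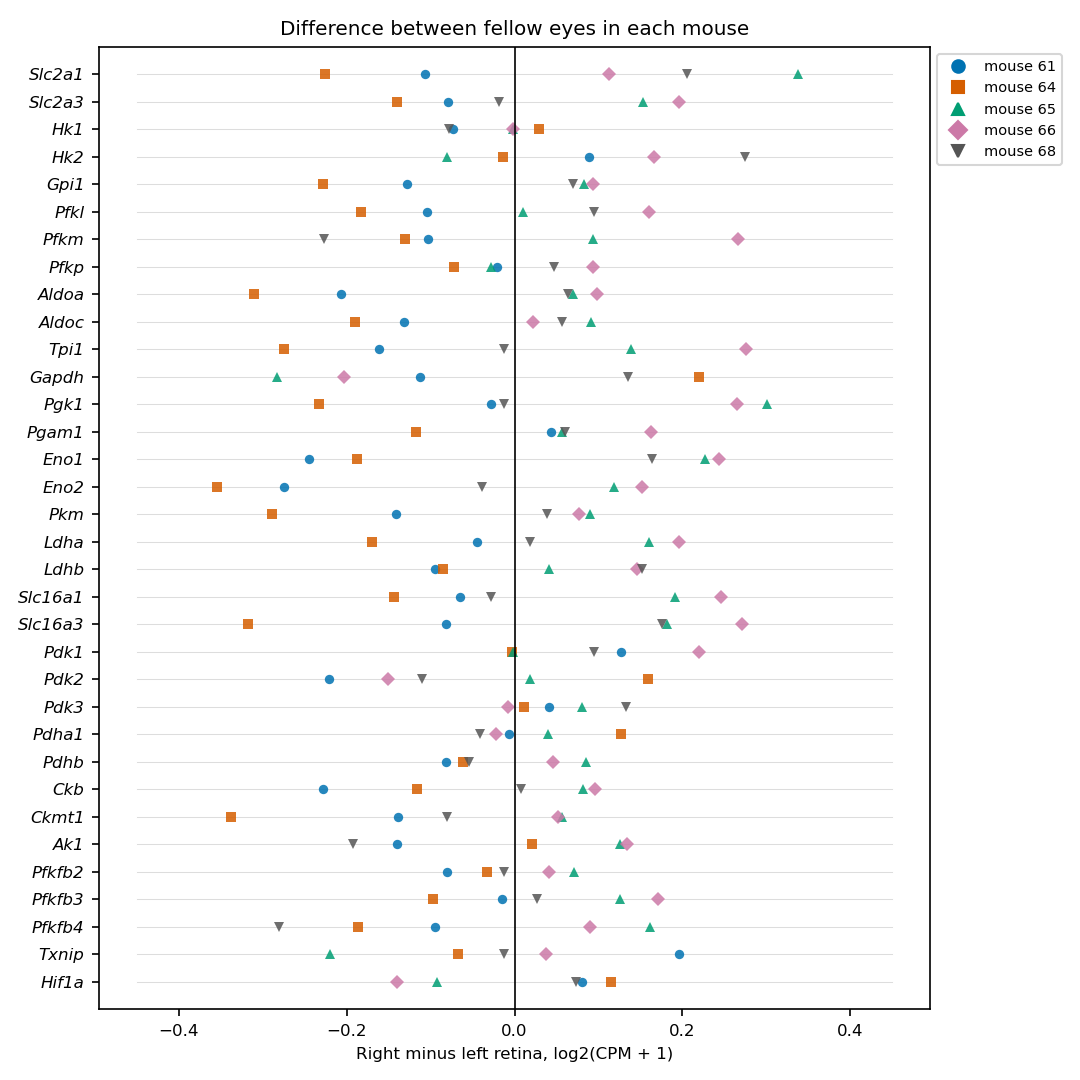
Right minus left difference in log2(CPM + 1) for each of the 34 tested members (rows), with 1 symbol per mouse. Mice 61 and 64 lie mostly left of 0 and mice 65 and 66 mostly right of it, whereas Gapdh and Hif1a run the other way in several mice.

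The size of the difference between fellow eyes, as the root mean square over the 5 mice, was 0.219 for Eno2, 0.216 for Eno1, 0.215 for Slc2a1, 0.221 for Slc16a3, 0.208 for Pgk1, 0.200 for Gapdh and 0.199 for Tpi1. Genes of like level (the 500 nearest in mean) had medians of 0.075 for Eno2, 0.081 for Slc2a1 and 0.126 for Slc16a3. At the other end, Hk1 had 0.050 against 0.076 and Pfkfb2 0.053 against 0.076. With copies added, the values fell to 0.094 for both Gapdh and Pgk1 and to 0.183 for Eno1. Over the 34 members the median was 0.136, against 0.131 over all tested genes, which include genes of every level. Most members lay above the median of their genes of like level, such as Aldoa (0.178 against 0.078), Pkm (0.154 against 0.078) and Ldha (0.138 against 0.076). Below it lay Hk1, Pfkp, Pfkfb2, Pfkfb3, Pdk3, Pdha1, Pdhb and Txnip.

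Marker lists of other kinds also differed between fellow eyes. The 14 rod markers summed to 16120, 16670, 14640, 14430 and 15140 CPM in the left retinas of mice 61, 64, 65, 66 and 68 and to 15030, 15120, 15280, 15390 and 15560 CPM in the right retinas. On the right, 3, 3, 10, 9 and 8 of the 14 were higher in the same order of mice. The 9 cone markers summed to 260.1 to 356.1 CPM, with 1, 1, 7, 7 and 7 of 9 higher on the right. The 12 Müller glia markers summed to 1101 to 1312 CPM, with 4, 6, 12, 8 and 6 of 12 higher on the right. The 3 sums were lower on the right in mice 61 and 64 and higher in mice 65, 66 and 68, but single markers of each list went the other way in most mice. Of the 14 pigment epithelium markers 8, 2, 12, 12 and 11 were higher on the right, and their sum (252.5 to 303.2 CPM) was mostly Trpm3, Otx2 and Rlbp1, which other retinal cells also express. Lens markers were higher on the right for 15, 0, 16, 16 and 17 of 17, with sums in left and right eyes of 51.42 and 169.4 CPM in mouse 66 and of 59.69 and 82.38 CPM in mouse 61. None of the rod, cone and Müller markers was at 0 in any library. The part of these cell types in the result was not tested. The left retina of mouse 66 was the lowest library for 12 of 34 members, against 13.7% of all tested genes, and the left retina of mouse 61 the highest for 9, against 28.1%.

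No member passed the test between mice as deposited, and Pfkfb3 came closest. In the moderated F-test of limma on differences between mice, 0 of 34 passed an adjusted p of 0.05, against 81 of 14210 tested genes (0.57%). At an unadjusted p under 0.05 there were 8 of 34, namely Pfkfb3, Txnip, Hk2, Pfkl, Ldhb, Pgk1, Pfkfb2 and Pgam1, against 13.8% of all genes. The mean of mouse 66 was the lowest of the 5 for 11 of 34 members, against 17.8% of all genes.

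Pfkfb3, the form of the bifunctional enzyme with the strongest kinase activity, was at 5.95, 7.40, 8.19, 7.45 and 8.81 CPM in the left retinas of mice 61, 64, 65, 66 and 68 and at 5.88, 6.86, 9.02, 8.51 and 8.99 CPM in the right retinas. Both retinas of mouse 61 were below the other 8 libraries, and mouse means spanned 0.52 log2 units (adjusted p 0.127 in limma), or 0.29 without mouse 61. The adjusted p was 0.0370 after rescaling libraries to their listed genes and 0.0358 after quantile normalisation, so that its call depended on the scaling. In the rescaled fit the filter and the added 1 followed the rescaling. It therefore tested 17037 genes, and the added 1 weighed less. Txnip, which falls when cells are short of glucose, was at 3.60, 4.96, 3.05, 3.33 and 4.09 CPM in left eyes and 4.26, 4.69, 2.48, 3.44 and 4.05 CPM in right eyes. Mouse 65 was the lowest and mouse 64 the highest in both eyes, a span of 0.63 log2 units (adjusted p 0.174 in limma). Lens markers summed to 16.15 CPM in the left and 1021 CPM in the right eye of mouse 65, and a link of lens content to Txnip was not tested. Gm15441, an antisense gene that overlaps Txnip and its promoter, was listed at 0 to 0.0875 CPM.

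The libraries of Hk2 given above put mouse 66 lowest and mouse 65 highest, a span of 0.37 log2 units (adjusted p 0.238 in limma). Pfkl was at 65.6, 58.8, 65.6, 49.8 and 56.1 CPM in left eyes and 60.9, 51.7, 66.04, 55.8 and 59.95 CPM in right eyes. Mouse 65 was again the highest and mouse 66 the lowest by their means, with overlapping single libraries of the other mice. Ldhb was at 25.97, 22.7, 21.3, 18.9 and 19 CPM in left eyes and 24.3, 21.3, 21.97, 21.04 and 21.2 CPM in right eyes, and the left retina of mouse 61 was the highest of the 10. Pgk1 was at 36.4, 29.6, 29.9, 27.04 and 34.4 CPM in left eyes and 35.7, 25.01, 37.1, 32.7 and 34.1 CPM in right eyes. Fellow eyes of mice 65 and 66 differed by more than several pairs of mice did, and with its copies added the sum ran from 89.5 to 114.6 CPM.

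**Figure D4:**
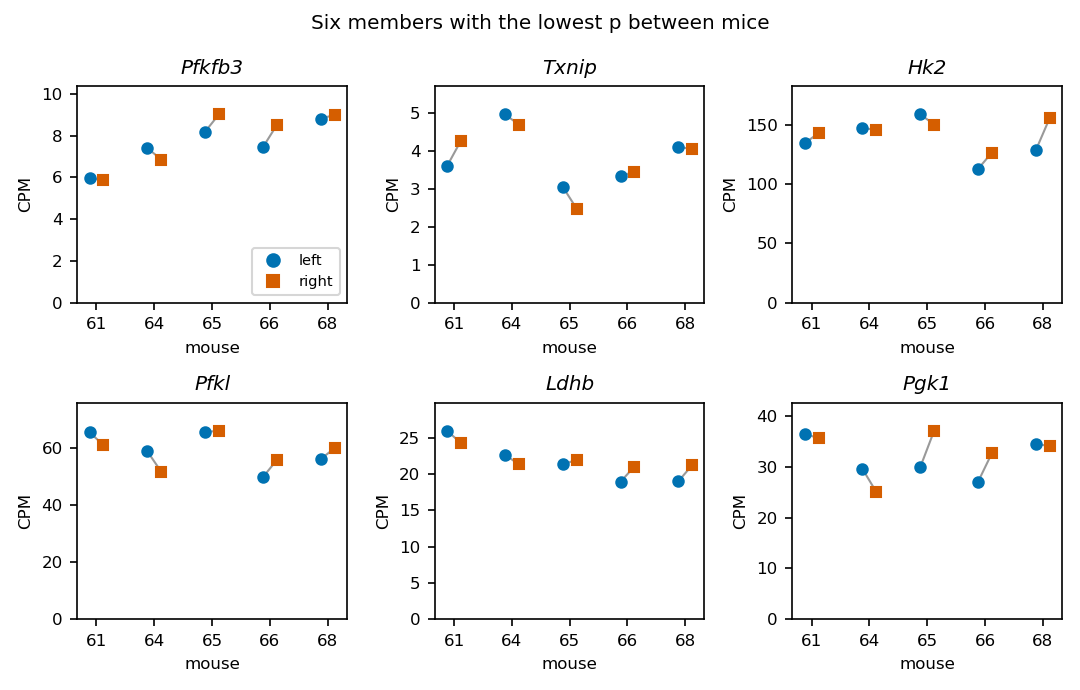
CPM of the 6 members with the lowest unadjusted p between mice in the left (circle) and right (square) retina of each mouse, fellow eyes joined by a line, with the axis starting at 0. Pfkfb3 is lowest in both retinas of mouse 61, and Txnip is lowest in both retinas of mouse 65.

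Ratios of isozymes compare 2 genes within a library, as log2(CPM + 1) of the first minus that of the second. A common scaling factor drops out for abundant genes. It does not fully drop out for genes of a few CPM, such as Pfkfb3 and Slc16a3. For these the added 1 also makes the log2 ratios below differ from those of the CPM values. Of 13 ratios, 12 had both genes above the filter. The ratio of Slc16a8 to Slc16a1 was left untested and stood at 0.00774 per kb. Against side, 0 of the 12 passed an exact two-sided sign-flip permutation test over 5 mice, whose smallest possible p is 0.0625 (smallest adjusted p 0.75, and 0 with an unadjusted p under 0.05), so that the design could not reach the threshold. Between mice, 3 of the 12 passed an exact one-sided permutation test over the 945 ways to pair 10 libraries, whose smallest possible p is 0.00106, after Benjamini-Hochberg adjustment over the 12.

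The widest of these was the ratio of Pfkfb2, the main bifunctional enzyme in the retina here, to Pfkfb3. Pfkfb2 was at 171, 155, 141, 156 and 159 CPM in left eyes and 162, 151, 149, 161 and 158 CPM in right eyes, in the same order of mice. The log2 ratio was 4.63, 4.21, 3.95, 4.22 and 4.03 in left eyes and 4.57, 4.28, 3.90, 4.09 and 3.99 in right eyes. Mouse 61 was above all other mice in both eyes and mouse 65 below them, a span of 0.67 (adjusted p 0.0254, exact permutation test). Without mouse 61 the span was 0.32.

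Lactate dehydrogenase also shifted between mice. Ldha was at 159, 162, 151, 146 and 168 CPM in left eyes and 155, 144, 169, 167 and 170.0 CPM in right eyes, and with the Ldhb values above the log2 ratio of Ldha to Ldhb was 2.57, 2.79, 2.77, 2.88 and 3.08 in left eyes and 2.62, 2.70, 2.89, 2.93 and 2.94 in right eyes. Both retinas of mouse 61 had the lowest ratios and both retinas of mouse 68 the highest, a span of 0.41 (adjusted p 0.0381, exact permutation test) that was 0.27 without mouse 61. Mouse means spanned 0.14 log2 units for Ldha and 0.32 for Ldhb.

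The balance of lactate carriers was the third. Slc16a1 was at 67.6, 71.2, 56.1, 60.2 and 69.4 CPM in left eyes and 64.5, 64.4, 64.2, 71.6 and 68.1 CPM in right eyes. Slc16a3 was at 7.56, 8.04, 8.76, 7.52 and 8.57 CPM in left eyes and 7.09, 6.25, 10.1, 9.28 and 9.80 CPM in right eyes. Their log2 ratio was 3.001, 2.997, 2.55, 2.85 and 2.88 in left eyes and 3.02, 3.17, 2.56, 2.82 and 2.68 in right eyes, lowest in both retinas of mouse 65 and highest by mean in mouse 64 (span 0.53, adjusted p 0.0381, exact permutation test). Without mouse 65 the span was 0.31. After quantile normalisation only 1 of the 12 ratios passed. With any 1 mouse left out 0 passed, where fewer pairings remain and some spans also fell. The smallest possible p of the exact permutation test is then 0.00952. A single ratio at that p cannot pass after adjustment over the 12. Without mice 65 and 68 the smallest possible p of the exact permutation test is 0.0667, so that no ratio could pass.

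**Figure D5:**
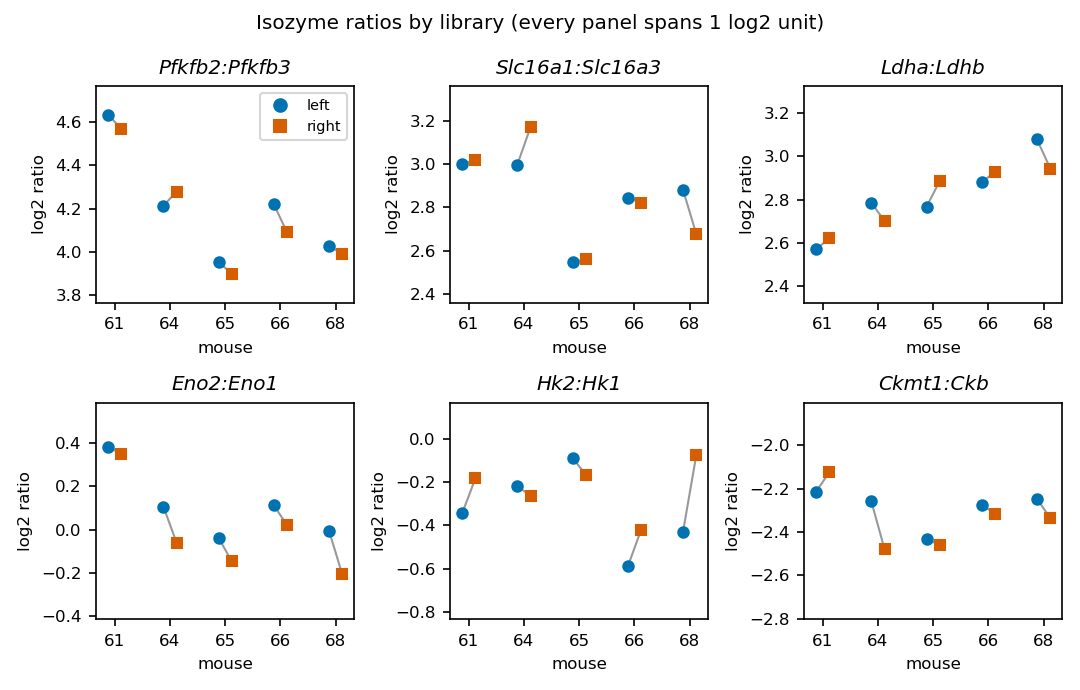
Log2 ratio, from log2(CPM + 1), of 6 isozyme pairs in the left (circle) and right (square) retina of each mouse. Fellow eyes are joined by a line, and every panel spans 1 log2 unit. The upper row holds the pairs that passed the test between mice, with Pfkfb2 to Pfkfb3 highest in both retinas of mouse 61, and in the panel of Eno2 to Eno1 the right retina is lower in 5 of 5 mice.

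Against side, Eno2 to Eno1 was the only one of the 12 ratios that went 1 way in 5 of 5 mice. Eno1 was at 126, 136, 114, 103 and 127 CPM in left eyes and 106, 119.6, 133, 122 and 143 CPM in right eyes, beside the Eno2 values above. The log2 ratio was 0.38, 0.11, −0.04, 0.11 and −0.005 in left eyes and 0.35, −0.06, −0.15, 0.02 and −0.21 in right eyes, lower on the right by 0.03 to 0.20 log2 units (mean −0.12, SE 0.03, p 0.0625, the smallest the exact sign-flip permutation test can give, adjusted p 0.75). With the copies of Eno1 added, the mean was −0.13 and the direction again the same in 5 of 5 mice. The log2 ratio itself then lay lower, between −1.50 and −0.89 in the 10 libraries. The ratio also differed between mice at an unadjusted exact permutation p of 0.0423 (adjusted p 0.127), highest in mouse 61.

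Hexokinase and the pyruvate dehydrogenase kinases came next against side, together with Pfkfb2 to Pfkfb3. Hk1 was at 171, 172, 169, 170.3 and 174 CPM in left eyes and 163, 175, 169, 170.1 and 164 CPM in right eyes, the narrowest range of any member (highest 1.08 times the lowest). The log2 ratio of Hk2 to Hk1 was −0.34, −0.22, −0.09, −0.59 and −0.43 in left eyes and −0.18, −0.26, −0.17, −0.42 and −0.08 in right eyes, higher on the right in 3 of 5 mice by a mean of 0.11 (SE 0.08, exact permutation p 0.25), or 0.05 without mouse 68. Pdk2 was at 6.03, 5.76, 6.14, 6.61 and 6.27 CPM in left eyes and 5.03, 6.55, 6.23, 5.86 and 5.73 CPM in right eyes. The ratio of Pdk1 to Pdk2 was higher on the right in 3 of 5 mice by a mean of 0.15 (SE 0.10, exact permutation p 0.25), or 0.09 without mouse 66.

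The remaining members are given by their lowest and highest library. Pfkp lay between 276.5 and 318.1 CPM, Pdhb between 25.8 and 28.8, Pdha1 between 23.5 and 26.4, Aldoc between 83.9 and 100.1, Ckb between 168.9 and 201.6 and Gpi1 between 155.5 and 187.2 CPM. Pkm lay between 551.5 and 699.3 CPM and Aldoa between 328.4 and 419.3 CPM, both lowest in the left retina of mouse 66 and highest in the left retina of mouse 64. Tpi1 lay between 97.6 and 138.3 CPM, Pfkm between 20.5 and 28.9, Slc2a3 between 21.6 and 27.3, Ak1 between 11.2 and 14.6 and Pfkfb4 between 3.47 and 5.04 CPM.

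Outside the 37, a list of 108 further genes of glucose and energy metabolism held 101 listed and 83 tested genes. Against side, 0 of 83 passed in limma, and 0 had an unadjusted p under 0.05; the lowest belonged to Bnip3l, a mitophagy receptor induced by hypoxia (difference 0.09, p 0.0616), Hif3a, a further hypoxia-inducible subunit (0.17, p 0.0784) and Ugp2, which makes the sugar donor of glycogen (0.12, p 0.0886). Between mice, 2 of 83 passed in limma's F-test and 14 had an unadjusted p under 0.05, against the 0.57% and 13.8% of all genes given above. Arrdc3, an arrestin of the same family as Txnip, was at 47.3, 44.5, 33.9, 40.2 and 44.3 CPM in the left retinas of mice 61, 64, 65, 66 and 68 and at 47.05, 46.4, 32.9, 38.6 and 47.2 CPM in the right retinas. Like Txnip it was lowest in both retinas of mouse 65 (span 0.49 log2 units, adjusted p 0.01247 in limma). Arrdc4, a further arrestin on the list with a mean of 1.72 CPM, was instead highest by mean in mouse 65 and lowest in mouse 68 (span 0.13, adjusted p 0.856 in limma). Ndrg1, a hypoxia-responsive gene, was at 49.5, 61.8, 54.5, 66.4 and 54.4 CPM in left eyes and 48.5, 60.3, 53.3, 64.7 and 54.8 CPM in right eyes, lowest in mouse 61 and highest in mouse 66 (span 0.41, adjusted p 0.0181 in limma).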

How the data were processed

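Total RNA of 10 mouse retinas was sequenced after ribosomal depletion with a strand-specific kit, per the labels' protocols. The submitters' processing notes name STAR, Partek and GRCm38 (mm10). No version, counting rule or handling of multiply mapped reads was stated in these sources. The deposited values are CPM plus 0.0001, a unit read from the values: 91.0% to 91.91% of low values were whole multiples of a step (tolerance 0.1, values up to 20 steps), too few to recover reads, so no count test was run. The 0.0001 was removed, and the 14210 genes (34 of 37 members) that averaged 1 CPM or more were analysed as log2(CPM + 1), which understates changes of low genes.

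Right minus left and the mouse terms were fitted with limma 3.58.1 (R 4.3.3) with a variance trend, two-sided, and Benjamini-Hochberg adjustment over all tested genes at 0.05. The mouse was a block, since same-numbered retinas share an animal, and the deviations of fellow eyes correlated at 0.607, 0.143, 0.166, 0.172 and 0.311. Where nothing else is stated, n is 5 mice. In data of 14210 genes simulated with independent normal noise, 50 genes were changed at each size. The change between mice was a shift of mouse 61 alone. Between sides 54%, 96% and 100% of genes changed by 0.25, 0.5 and 1 log2 units were recovered, and between mice 10%, 64% and 100%. Each comparison gave 12 false calls. Where fewer genes change the adjustment is stricter, so these shares do not hold for a lone changed gene. Isozyme ratios were tested with exact permutation tests (SciPy 1.17.1), and copies were found with BLAST 2.17.0. Alternatives were 2 pseudocounts, 2 filters, 2 scalings, leaving out mice, no replicate block, side terms and, added after the data were seen, summing copies and another gene length. Every member is named with its level. Members given in every library are the 6 with the lowest p per comparison and both genes of the ratios with the lowest p. The members and lists were chosen with earlier results of these data known.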

Additional observations from a re-analysis of the deposited data

Results flagged for a closer look

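Of 74 groups of 5 libraries (each member in the left or the right retinas), 1 held a library far from the others by Dixon's criterion. Pdha1, a subunit of pyruvate dehydrogenase, had 23.47 CPM in the left eye of mouse 64, while the other 4 left retinas lay between 25.38 and 25.64 CPM, and the gap made up 0.887 of the range. By chance about 1 in 20 groups would pass. The right retina of the same mouse was at 25.7 CPM.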

How the results depend on the processing

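Against side, 0 members passed under every alternative run, among them the fit without the replicate block (0 of 14210 genes called, 188 at an unadjusted p under 0.05). The block changed no call against side. Between mice, 81 genes passed in all, 23 to 88 with each mouse left out and 41 without mice 65 and 68. Of the members, 1 (Pfkfb3) passed after rescaling to listed genes and 1 after quantile normalisation, with 0 under the other settings. Of the 12 isozyme ratios, the 3 that passed between mice became 1 after quantile normalisation, 4 with side means removed, 0 to 0 with each mouse left out and 0 without mice 65 and 68. With 4 mice there are fewer pairings, and spans of the ratios also fell in part. The smallest possible p of the exact permutation test is then 0.00952, at which a single ratio cannot pass after adjustment. Without mice 65 and 68 the exact permutation test could not reach the threshold (smallest possible p 0.0667). Levels per kb reversed with the longest coding transcript as length for Hk2 to Hk1 (−0.64) and Eno2 to Eno1 (−0.41). With copies added, the log2 ratio of Eno2 to Eno1, not scaled to length, lay between −1.50 and −0.89. Depth limits the members under 1 CPM, and near-identical copies limit Pgk1, Eno1 and Gapdh.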
